A study of Mus musculus with 20 samples.

Results

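NICD-ER cells that had received only ethanol, the solvent of the ligand, were compared with cells carrying an empty CRISPR vector. The members were chosen by sample title: 2 samples titled as NICD-ER with 24 hours of ethanol and 6 samples titled as CRISPR control, together 8 of the 20 samples of the series. The comparison bears on how active the fusion protein was without its ligand and on how far the lines differed in other ways. All samples were made from E2-10HA, a mouse hybridoma line described as mature T cells, and their RNA was sequenced after removal of ribosomal RNA. NICD-ER samples carried the vector pMIGRI with Flag-tagged NICD, the Notch intracellular domain, fused to ER, the estrogen receptor part, followed by an IRES and GFP. They were sorted and given ethanol or 4-hydroxytamoxifen (4-OHT), the ligand of the fusion, for 24 hours (n = 2 each). CRISPR controls carried lentiCRISPRv2 without a guide and were selected with puromycin (n = 6). Replicates 1 and 2 of the control are labelled as having no treatment, and replicates 3 to 6 have no treatment entry. Other groups of the series serve here as reference levels. They are BioNICD cells, which carried the biotin ligase BirA with a biotin-tagged NICD that was wild type or the DEP form (n = 2 each), and cells with guides against the H2A.Z genes H2afv and H2afz in lentiCRISPRv2 (n = 6).

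Notch receptors are cut after a ligand binds, and the freed intracellular domain enters the nucleus, joins the DNA-binding protein RBPJ and a Mastermind coactivator, and switches on target genes. Fusing the intracellular domain to the hormone-binding domain of an estrogen receptor is meant to hold it inactive in the cytoplasm until 4-OHT is added. In T cells Notch signalling is known for lineage commitment of thymocytes, for growth of leukaemic cells, and for target genes such as Hes1, Dtx1 and Il2ra.

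The ethanol samples held 28866834 and 30823198 counts and the controls 10704131 to 15440584. Levels are in CPM, counts scaled to the size of the library with TMM factors over all 20 samples. The T cell genes Cd3d, Cd3e, Cd3g and Thy1 were well above 0 in all 8 samples, with Cd3d at 204 and 206 CPM with ethanol and 181 to 212 CPM in the controls. Cd8b1 had no count in any of the 8 samples, Cd8a reached at most 0.0324 CPM, and Cd247, the CD3 zeta chain, stood at 0 to 0.197 CPM in the controls. B cell and epithelial marker lists summed to at most 0.46 and 0.194 CPM in any of the 8 samples. Myeloid markers summed to 16.3 to 37 CPM in the controls and 15.8 to 18.8 CPM with ethanol, mostly from Cd68, with Cd14 at 0. Erythroid markers summed to 0.0703 to 0.474 CPM in the controls and 0.621 and 0.68 CPM with ethanol, with the haemoglobin genes Hba-a1 and Hbb-b1 at 0. Control replicate 1 stood apart for fibroblast genes, at 43.1 CPM summed, against 0.129 and 0.186 CPM with ethanol. Lars2 stood at 2918 CPM of the unscaled total in ethanol replicate 2 and 8836 CPM in control replicate 6, against 97.41 CPM in ethanol replicate 1. Both ethanol samples are described as replicate 1 while their titles number them 1 and 2, and their counts differed by more than sampling noise (mean chi-square per gene 19.9, where sampling alone gives about 1). The descriptions of control replicates 3 to 6 name BioNICD groups while their titles and plasmid entries say control. Notch1 stood at 0.913 to 2.13 CPM in those 4 samples and at 282 and 643 CPM (means, n = 2 each) with wild-type and DEP BioNICD.

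The 2 ethanol samples differed from the 6 controls at a large share of genes. Of 11178 genes tested, 5097 (45.6%) passed an adjusted p of 0.05 in edgeR's quasi-likelihood test, 2528 of them higher (22.6%) and 2569 lower (23%) with ethanol. At 2-fold or more, 714 genes were higher (6.39%) and 200 lower (1.79%). Against control replicates 1 and 2 alone, 6912 of 11319 genes passed (61.1%), 3438 higher (30.4%) and 3474 lower (30.7%). With 1 ethanol sample left out the count with 6 controls was 2954 (without replicate 1) or 3180 (without replicate 2). Of 11121 genes tested with both choices of control, 4594 were called in both and 0 of them in opposite directions. Replicates 1 and 2 are part of the 6 controls and the ethanol samples are the same, so a shared direction is partly built in. Against control replicates 1 and 2 and against replicates 3 to 6, 365 genes were called in opposite directions, so the choice of control decided their direction. Of the 914 genes at 2-fold or more with 6 controls, 854 were also called in the same direction against replicates 1 and 2, again with shared samples. The ethanol samples differ from every control in vector, selection, solvent, transgene and the folder in which reads were counted, and these cannot be told apart in this comparison. Whether replicates are separate cultures, the ethanol pair included, is not in the labels, and the p-values therefore rest on a spread between samples that could be technical only.

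Notch1 and Esr1, the genes named for the parts of the fusion, were both higher with ethanol. Notch1 (mm9 chromosome 2, 26313422 to 26359342), a Notch receptor gene, stood at 100 and 96.4 CPM with ethanol. The 6 controls stood at 2.73, 2.75, 2.13, 1.71, 1.76 and 0.913 CPM. Both ethanol samples were far above every control, 5.64 higher on the log2 scale (SE 0.19, adjusted p = 6.11e-08). Gene-level counts cannot tell a transgene from the endogenous gene, and the species of the fusion's parts is not in the labels. Esr1 (chromosome 10, 5340908 to 5734552), the estrogen receptor alpha gene, stood at 22.3 and 21.4 CPM with ethanol and had 1 count in the 6 controls together, a ratio of 1720 (95% counting interval 309 to 68200, counting error only). Both genes stood at similar levels with 4-OHT, 92 CPM for Notch1 and 18.8 CPM for Esr1. The differences between 4-OHT and ethanol missed the threshold (log2 -0.09, adjusted p = 0.0807, and -0.22, adjusted p = 0.064).

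**Figure D1:**
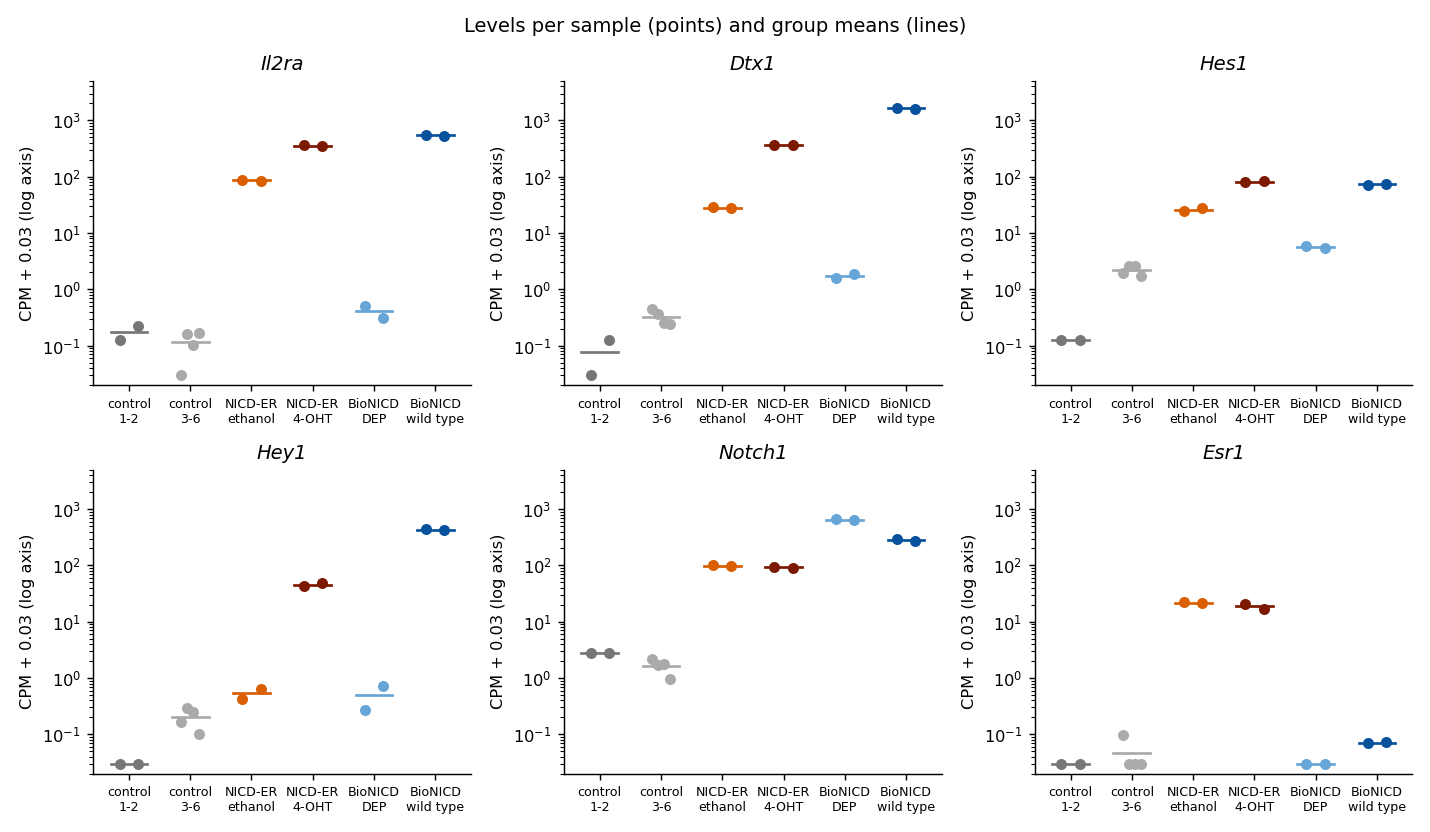
Levels of Il2ra, Dtx1, Hes1, Hey1, Notch1 and Esr1 in every control, NICD-ER and BioNICD sample, in CPM plus 0.03 on a log axis; points are samples and lines group means. Il2ra stands at 88.2 and 84.1 CPM with ethanol, between the controls (at most 0.189 CPM) and 4-OHT (359 and 355 CPM), while Hey1 with ethanol stays below 1 CPM.

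Il2ra, Dtx1 and Hes1 were all higher in both ethanol samples than in any control, and all were lower than with 4-OHT. Il2ra (chromosome 2, 11564419 to 11614821) encodes the alpha chain of the interleukin-2 receptor. It stood at 88.2 and 84.1 CPM with ethanol and at 0.094, 0.189, 0, 0.131, 0.0731 and 0.141 CPM in the controls. The groups lay far apart, and the log2 fold change was 9.62 (SE 0.18, adjusted p = 1.76e-09). With 4-OHT it reached 359 and 355 CPM, so the ethanol mean was 24.1% of the 4-OHT mean and the control mean 0.0293% of it. The DEP line, which also carries a NICD transgene, stood at 0.472 and 0.282 CPM, and ethanol exceeded it by 7.85 on the log2 scale (SE 0.108, adjusted p = 9.38e-24).

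Dtx1 (chromosome 5, 121130273 to 121161678) encodes Deltex, a ubiquitin ligase that binds the Notch intracellular domain. It stood at 29.4 and 27.3 CPM with ethanol and at 0, 0.0947, 0.412, 0.328, 0.219 and 0.211 CPM in the controls. Again the groups did not overlap (log2 fold change 6.91, SE 0.26, adjusted p = 1.42e-07). The ethanol mean was 7.81% of the 4-OHT mean of 363 CPM, a smaller share than for Il2ra. The DEP samples stood at 1.59 and 1.83 CPM, below both ethanol samples (log2 difference 4.02, SE 0.088, adjusted p = 3.29e-20).

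Hes1 (chromosome 16, 30065443 to 30067882) encodes a transcriptional repressor that is a direct Notch target in many tissues. It stood at 24.5 and 27.3 CPM with ethanol. The controls split by set: replicates 1 and 2 stood at 0.094 and 0.0947 CPM, and replicates 3 to 6 at 1.92, 2.56, 2.56 and 1.69 CPM. Both ethanol samples exceeded all 6, by 4.01 on the log2 scale (SE 0.469, adjusted p = 0.00012), and 3.55 against replicates 3 to 6 alone (adjusted p = 2.37e-13). The ethanol mean was 31.8% of the 4-OHT mean of 81.6 CPM and lay above the DEP line at 5.84 and 5.35 CPM (log2 difference 2.20, SE 0.0973, adjusted p = 1.20e-14).

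Hey1, a repressor of the same family as Hes1, was different. Its level was 0.388 and 0.621 CPM with ethanol and 0 to 0.263 CPM in the controls, too low to be tested there. With 4-OHT it stood at 42.5 and 48.3 CPM, so ethanol reached 1.11% of the 4-OHT mean. Against DEP the log2 difference was 0.01 (SE 0.432, adjusted p = 0.989). Nrarp, a feedback inhibitor of Notch, had 0.0971 and 0.0931 CPM with ethanol, no more than 0.0731 CPM in a control, and 3.32 and 4.28 CPM with 4-OHT.

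Of 22 canonical Notch targets, a list of genes known from many tissues, 20 had a count and 13 could be tested. Both ethanol samples lay above all 6 controls for 13 of the 20 (65%), below for 2 (10%) and among them for 5. Of all 17366 genes with a count, 3987 (23%) lay above and 2973 (17.1%) below. Of the 13 tested, 9 rose (69.2%) and 2 fell (15.4%), against 22.6% and 23% of all genes tested. The 9 that rose were Il2ra, Dtx1, Hes1, Notch1, Lfng, Bcl2, Tcf7, Gata3 and Ccnd1, and the 2 that fell were Ccnd3 and Cdkn1a. For Notch1 the reads of a transgene cannot be separated, and Il2ra and Dtx1 were at or near 0 in the controls, so they could be tested only because they were high with ethanol. At a control mean of at least 1 CPM, 11 members were tested. With Notch1 included, 7 rose (63.6%) and 2 fell (18.2%), against 21% and 24.7% of all genes at that level. The median log2 fold change of the 13 tested was 1.07, and 1.05 or 1.09 without ethanol replicate 1 or 2. The 9 members that could not be tested were Hes5, Hey1, Hey2, Heyl, Nrarp, Ptcra, Notch3, Igf1r and Il7r.

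Lfng, a glycosyltransferase that modifies Notch receptors, stood at 43.9 and 42.4 CPM with ethanol and 13.4 to 17.3 CPM in the controls (log2 fold change 1.46, SE 0.101, adjusted p = 4.93e-06). Tcf7, a transcription factor of early T cells, stood at 406 and 396 CPM with ethanol, 118 and 118 CPM in control replicates 1 and 2, and 215 to 235 CPM in replicates 3 to 6. Bcl2, an inhibitor of apoptosis, stood at 153 and 167 CPM, against 21.2 and 23.3 CPM in control replicates 1 and 2 and 65 to 77.5 CPM in replicates 3 to 6. Both ethanol samples exceeded every control for each of these, but the size depended on the set. The log2 fold change for Bcl2 stood at 1.51 (SE 0.411, adjusted p = 0.0135) with all controls, 2.83 against replicates 1 and 2 and 1.15 against replicates 3 to 6. Tcf7 gave 1.07 (SE 0.256, adjusted p = 0.0071), 1.75 and 0.82. Without ethanol replicate 1 neither passed (adjusted p = 0.0696 for Bcl2 and 0.0587 for Tcf7), and without replicate 2 Bcl2 did not (0.0904). Levels with 4-OHT were 34 CPM for Lfng, 114 CPM for Bcl2 and 654 CPM for Tcf7.

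Smaller differences stood at Gata3, a T helper lineage factor, and the cyclins and cell cycle inhibitors of the list. Gata3 had 117 and 112 CPM with ethanol against 77.6 to 91.7 CPM (log2 0.42, adjusted p = 0.000703). Ccnd1, cyclin D1, had 1.88 and 2.17 CPM against 0.723 to 1.6 CPM (log2 0.88, adjusted p = 0.0134), and missed the threshold against control replicates 1 and 2 (0.60, adjusted p = 0.0965) and without ethanol replicate 1 (0.0762) or 2 (0.153). Ccnd3, cyclin D3, and Cdkn1a, the inhibitor p21, fell by 0.32 and 0.53 on the log2 scale (adjusted p = 0.00194 and 0.000251), and in a model of all 20 samples Ccnd3 did not pass (0.0664). Myc, a growth regulator and Notch target in T cell leukaemia, had 231 and 228 CPM with ethanol, above the controls at 147 to 204 CPM, and missed the threshold (log2 0.32, adjusted p = 0.0559). Against each set of controls alone it passed, at 0.60 against replicates 1 and 2 (adjusted p = 4.24e-07) and 0.20 against replicates 3 to 6 (adjusted p = 0.000122). Its level with 4-OHT was 109 CPM. Nfkb2 had 141 and 140 CPM, within the range of the controls (137 to 160 CPM).

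Promoter sequence is given for Il2ra and Lfng, Notch targets that rose by very different amounts, to show what stands just before their starts. The sequences come from RefSeq, build GRCm38.p6, both on the plus strand, and run from 250 to 22 bases before the start (229 bases). They lie at chr2:11642542-11642770 and chr5:140607091-140607319. Capitals mark matches to TGGGAA, the core of the RBPJ motif, on either strand.
Il2ra: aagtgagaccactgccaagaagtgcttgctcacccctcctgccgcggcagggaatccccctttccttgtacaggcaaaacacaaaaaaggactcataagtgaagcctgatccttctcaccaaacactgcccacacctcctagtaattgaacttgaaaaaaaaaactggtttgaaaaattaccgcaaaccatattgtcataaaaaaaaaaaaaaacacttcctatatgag
Lfng: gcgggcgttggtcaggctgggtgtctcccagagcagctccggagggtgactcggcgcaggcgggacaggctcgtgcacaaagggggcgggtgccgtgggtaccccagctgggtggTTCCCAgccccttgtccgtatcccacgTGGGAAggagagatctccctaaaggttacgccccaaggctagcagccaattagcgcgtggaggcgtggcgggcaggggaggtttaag
The Lfng window held 2 matches, starting 135 bases before the start on the minus strand and 108 bases before it on the plus strand, and the second is part of the longer GTGGGAA. These motifs overlap each other by construction. The Il2ra window held none. Of 32851 promoter windows of the same length, 6562 (20%) held TGGGAA and 1622 (4.94%) GTGGGAA on either strand. A match is a description of the letters, and its absence says only that they are not in this window.

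To ask whether genes that differ between an active and a mutant NICD also differed here, the 2 BioNICD lines were compared. These lines share no sample with the ethanol and control groups. Their fit, however, took its filter, scaling and spread from 8 samples that included the ethanol pair. Wild type and DEP differed at 8194 of 12499 genes (65.6%), of which 1390 were at least 2-fold higher (11.1%) and 432 at least 2-fold lower (3.46%) with wild type. With only these 2 groups in the fit, 8003 of 11802 genes passed, 1329 at least 2-fold higher and 346 at least 2-fold lower. The counts below use the fit of 8 samples. Of the 1390 genes, 1325 had a count, and both ethanol samples lay above all 6 controls for 636 (48%) and below for 67 (5.06%). Among genes with a control mean of at least 1 CPM, which did not need the ethanol samples to enter the test, 612 of the 1390 were tested. Of these, 301 rose (49.2%) and 55 fell (8.99%), with a median log2 fold change of 0.50. Over all 10334 genes at that control level, 2169 (21%) rose and 2555 (24.7%) fell, with a median of -0.02. Of the 432 genes lower with wild type, 427 had a count, and the ethanol samples lay above all controls for 137 (32.1%) and below for 70 (16.4%). Among all genes with a count those shares were 23% and 17.1%. At a control mean of at least 1 CPM, 259 of the 432 were tested, 66 rose (25.5%) and 56 fell (21.6%), with a median of 0.01. Members of these lists are many genes of the same samples and are not replicates of the condition.

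**Figure D2:**
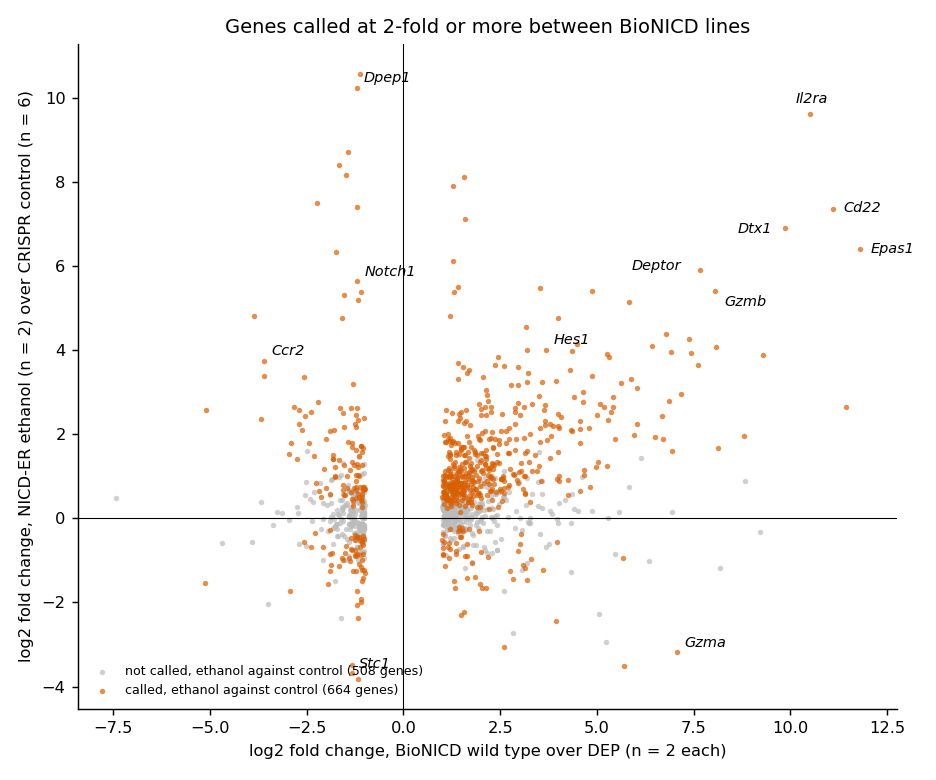
Genes called at 2-fold or more between wild-type and DEP BioNICD and tested in both comparisons, each a point at its log2 fold change between the BioNICD lines (horizontal) and between ethanol and control (vertical); orange marks genes called between ethanol and control. Of the genes drawn, 664 are called and 508 are not, and Il2ra lies at 9.62 on the vertical axis.

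The 10 genes that rose most in both of these comparisons, ranked by the smaller of the 2 changes, were Il2ra, Cd22, Dtx1, Epas1, Deptor, Gzmb, Cntnap2, Havcr2, Gbp2b and Plxnd1. Cd22, an inhibitory lectin best known from B cells, stood at 11.2 and 8.16 CPM with ethanol, at 0.282 and 0.0947 CPM in control replicates 1 and 2, and had no count in replicates 3 to 6 (log2 fold change 7.37). With 4-OHT it stood at 162 CPM, and the B cell genes Cd79b and Pax5 had no count in any of the 8 samples. Deptor, an inhibitor of mTOR signalling, stood at 21.4 and 21.3 CPM with ethanol and 0.0703 to 0.525 CPM in the controls (log2 fold change 5.92), at 70.9 CPM with 4-OHT and at 1.18 CPM with DEP. Gzmb, the killer-cell protease granzyme B, stood at 125 and 122 CPM with ethanol and 1.46 to 4.98 CPM in the controls (log2 fold change 5.40), at 256 CPM with 4-OHT and 18.7 CPM with DEP. No ethanol sample overlapped the controls for any of these 3 genes. Granzyme genes form a family, and how reads that match more than 1 gene were handled was not examined. Epas1, the hypoxia-inducible factor 2 alpha gene, had 1.75 and 1.61 CPM with ethanol and 1 count in the 6 controls, a ratio of 132 (95% counting interval 23.3 to 5280). Havcr2, the inhibitory receptor TIM-3, had 1.2 and 1.55 CPM and 2 counts in the controls, a ratio of 54.4 (14.6 to 456).

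The ethanol level as a share of the 4-OHT level varied widely among these genes. It was 5.97% for Cd22, 6.66% for Plxnd1, 7.81% for Dtx1, 12.8% for Cntnap2 and 13.5% for Havcr2. It was 24.1% for Il2ra, 30.2% for Deptor, 35.7% for Epas1, 48.2% for Gzmb and 73.2% for Gbp2b. The control level was between 0.0293% (Il2ra) and 3.46% (Gbp2b) of the 4-OHT level in these 10 genes. They were picked in part for their rise over the controls, so a low control share follows from the choice. Among them, Il2ra, Cd22, Dtx1, Epas1, Deptor, Cntnap2, Havcr2 and Gbp2b were at or near 0 in the controls. These could be tested only because they were high with ethanol. Ligand and ethanol differed at 4521 of 12499 genes (36.2%), a comparison that shares the ethanol samples.

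Among genes that fell in both, Stc1, a secreted glycoprotein of calcium and phosphate balance, had 3.14 and 3.48 CPM with ethanol against 39 to 46 CPM in the controls (log2 -3.68). It stood at 25.1 CPM with DEP and 0.163 CPM with the H2A.Z guides. Hist2h2be, a histone H2B gene, had 39.8 and 36.6 CPM against 104 to 118 CPM (-1.57), 125 CPM with DEP and 32.4 CPM with wild type. Both ethanol samples lay below every control for these genes. Bhlhe41, a circadian repressor, had 2.04 and 1.68 CPM against 4.36 to 9.96 CPM (-1.72). Rassf2 had 0.874 and 0.838 CPM, with 1.03 and 1.61 CPM in control replicates 1 and 2 and 12 to 14.4 CPM in replicates 3 to 6. Its log2 fold change of -3.48 with all controls came down to -0.64 (adjusted p = 0.126) against replicates 1 and 2, and it did not pass without ethanol replicate 1 (0.108) or 2 (0.111).

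Several of the genes with the largest differences from the control were also high in other lines. Ccdc91, a Golgi transport gene, stood at 206 and 205 CPM with ethanol and 0 to 0.219 CPM in the controls (log2 fold change 10.57). It stood at 20.6 CPM with DEP, 9.62 CPM with wild type and 397 CPM with the H2A.Z guides, so each other line exceeded the controls. Dpep1, a membrane dipeptidase, stood at 154 and 145 CPM with ethanol and 0 to 0.284 CPM in the controls (log2 10.25), 118 CPM with DEP and 249 CPM with the guides. Lonrf1, a ring finger gene, had no count in the 6 controls against 7.22 and 6.21 CPM with ethanol, at least 176-fold higher with a floor of 3 counts over the controls, and 6.59 CPM with DEP. E2f6, a repressor of the E2F family, had 1 count in the controls, a ratio of 1220 (95% counting interval 219 to 48400), and stood at 12.3 CPM with DEP and 13.7 CPM with the guides. For these 4 genes the controls stood apart from every other group of the series.

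Genes that were far lower with ethanol showed a similar spread over the lines. Ankrd16, an ankyrin repeat gene, had 13 and 12.4 CPM with ethanol and 90.6 to 110 CPM in the controls (log2 -2.97). It stood at 13.4 CPM with 4-OHT, 12.8 and 12.2 CPM with wild-type and DEP BioNICD and 14.6 CPM with the guides. The controls were high and every other group was low. Smpd1, acid sphingomyelinase, had 144 and 143 CPM against 914 to 1130 CPM (log2 -2.80), with 584 CPM in DEP and 75.5 CPM with the guides. Selenbp1, a selenium-binding protein, had 1.29 and 0.962 CPM against 31.4 to 38 CPM (log2 -5.00), with 6.16 CPM in DEP and 0.162 CPM with the guides. Gzma, granzyme A, had 4.6 and 3.35 CPM, 14.1 and 12.6 CPM in control replicates 1 and 2 and 43.2 to 51 CPM in replicates 3 to 6 (log2 -3.18). Gzma with ethanol was thus lower than in any control, whereas wild-type BioNICD stood at 1030 CPM.

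**Figure D3:**
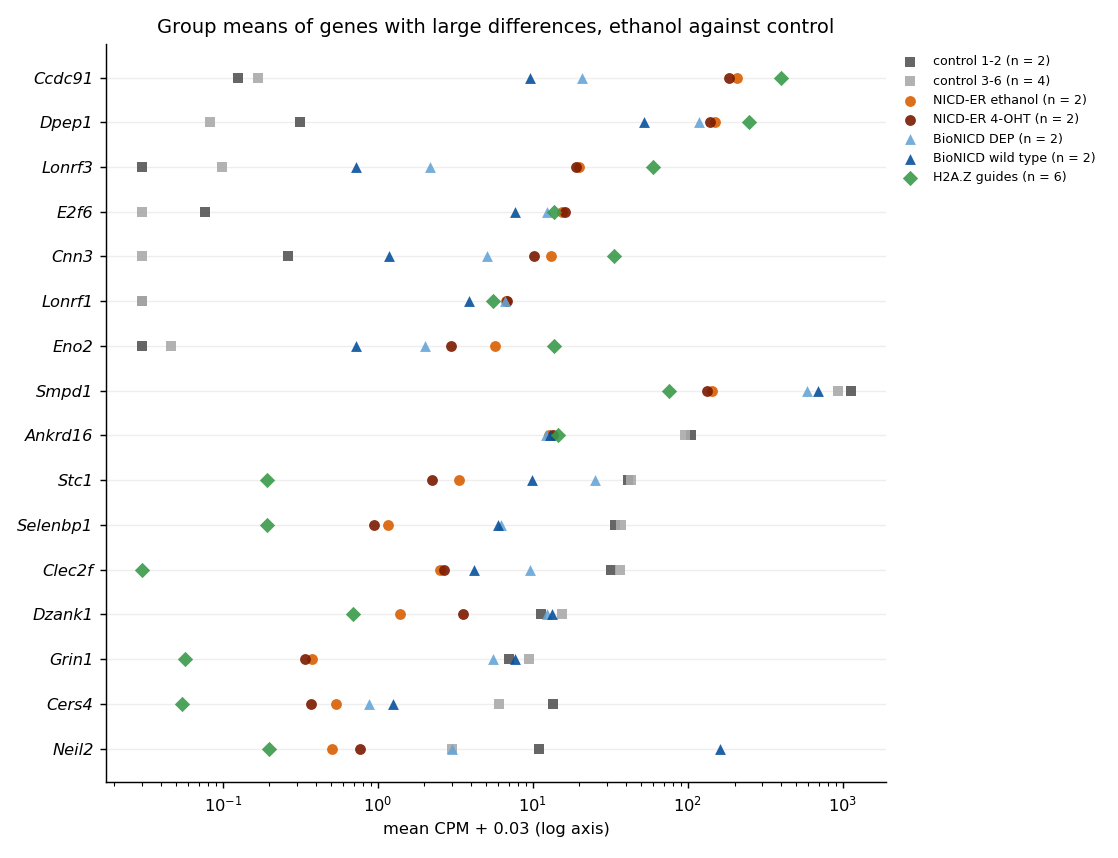
Mean level of 16 genes with large differences between ethanol and control, in CPM plus 0.03 on a log axis, for control replicates 1 and 2, control replicates 3 to 6, both NICD-ER groups, both BioNICD lines and the H2A.Z guides. For Ccdc91, Dpep1, Lonrf1 and E2f6 the 2 control symbols lie at the left with every other group to the right, and for Ankrd16 at the right.

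By a fixed level, 13 genes were below 0.1 CPM in every control and at 1 CPM or more in both ethanol samples. They were Cdh2, Crnde, E2f6, Eno2, Epas1, Esr1, Galntl6, Gspt2, Havcr2, Lonrf1, Lonrf3, Mina and Plekhg3. The mean reached 1 CPM for 13 of them with 4-OHT, for 5 with DEP, for 6 with wild type and for 8 with the guides. The reverse pattern held for 1 gene, Selenbp2, a close relative of Selenbp1. Against DEP, the ethanol samples differed at 6986 of 12499 genes (55.9%), so the distance to another line with a NICD transgene was also large.

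Genes for the parts of the Notch pathway were examined by role, beside 22.6% higher and 23% lower of all genes tested. Of 13 receptors, ligands and fringe enzymes, 8 were tested, 6 rose (75%) and 0 fell, Notch1 with its unseparated reads among the 6. Notch2, a receptor, had 295 and 289 CPM with ethanol against 163 to 183 CPM (log2 0.73, SE 0.0534, adjusted p = 6.65e-06). The ligand genes Jag1 and Jag2 had log2 fold changes of 1.08 and 0.96 (adjusted p = 0.0161 and 0.00473), at no more than 4.43 CPM, and the fringe gene Mfng 0.66 (adjusted p = 8.89e-05). Neither ligand gene passed without ethanol replicate 1 (adjusted p = 0.0915 for Jag1 and 0.0624 for Jag2), nor did Jag1 without replicate 2 (0.123). Rfng and Notch4 overlapped the controls. Of 19 cleavage and turnover genes, 18 were tested, 8 rose (44.4%) and 0 fell. Furin, the protease that cuts the receptor during its maturation, had 116 and 118 CPM against 52 to 64.5 CPM (log2 1.02, SE 0.084, adjusted p = 1.53e-05) and 348 CPM with 4-OHT. Of 30 RBPJ cofactors, 25 were tested, 9 rose (36%) and 5 fell (20%), the latter near the share of all genes. Tle3, a corepressor of the Groucho family, rose (log2 1.27, adjusted p = 4.45e-06), as did Maml3, a Mastermind coactivator (1.09, adjusted p = 1.28e-05). Rbpj itself passed with all samples (log2 0.26, adjusted p = 0.0162) but not without ethanol replicate 1 (0.123) or 2 (0.0819), nor in a model of all 20 samples (0.137). Kdm5b, a histone demethylase, fell by 1.02 on the log2 scale (adjusted p = 3.84e-06). Without ethanol replicate 1 or 2 the median log2 fold change was 0.23 or 0.24 for the cleavage and turnover genes. For the cofactors it was 0.12 or 0.15.

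Several lists of T cell genes held more members that rose than fell. Of 24 T cell transcription factors tested out of 28, 14 rose (58.3%) and 1 fell (4.17%), against 22.6% and 23% of all genes tested. Their median log2 fold change was 0.44, and 0.40 or 0.47 without ethanol replicate 1 or 2. Id2, an inhibitor of E proteins that also marks innate lymphoid cells, had 151 and 150 CPM with ethanol, 48.8 and 55.4 CPM in control replicates 1 and 2 and 24.6 to 30.7 CPM in replicates 3 to 6 (log2 2.08, adjusted p = 0.000189). It made up most of the summed level of the 7 NK and innate lymphoid markers, which was 157 and 158 CPM with ethanol and 29.3 to 62.6 CPM in the controls, with Ncr1, Klrd1 and Eomes at 0 in all 8 samples. The part of other cells in this difference was not tested. Klf2, a factor of quiescence and homing, had 20.5 and 18.2 CPM against 2.78 to 6.2 CPM (log2 2.25, adjusted p = 4.13e-05). Ets1 overlapped the range of the controls: it had 0.486 and 0.528 CPM with ethanol, no count in control replicates 1 and 2 and 1.32 to 1.77 CPM in replicates 3 to 6, and missed the threshold (log2 -1.19, adjusted p = 0.275).

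Of 24 genes of the T cell receptor complex and its signalling, 21 were tested, 9 rose and 1 fell. At a control mean of at least 1 CPM 7 of 19 rose (36.8%) and 1 fell (5.26%), against 21% and 24.7% of all genes at that level. Cd247 had 6.77 and 6.39 CPM with ethanol against at most 0.197 CPM in a control (log2 6.09, adjusted p = 1.90e-06), 0.541 CPM with DEP and 19.1 CPM with the guides. Trat1, an adaptor of the receptor, had 17.7 and 16.7 CPM against 0.752 to 5.27 CPM (log2 2.36, adjusted p = 0.00176), with 4.31 against control replicates 1 and 2. Both were above every control. Lck, the kinase that starts receptor signalling, was the 1 that fell (log2 -0.21, adjusted p = 0.0299). It lost the call in 10 alternatives, among them upper quartile scaling (adjusted p = 0.1), control replicates 1 and 2 alone (0.0992), leaving out any 1 of control replicates 3 to 6 (0.0582 to 0.0623) and leaving out ethanol replicate 1 (0.156) or 2 (0.17).

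Of 22 costimulatory and inhibitory receptors, 15 were tested, 9 rose and 0 fell. At a control mean of at least 1 CPM 7 of 12 rose (58.3%), against 21% of all genes at that level. Pdcd1, the inhibitory receptor PD-1, had 959 and 982 CPM with ethanol, 165 and 158 CPM in control replicates 1 and 2, and 327 to 339 CPM in replicates 3 to 6 (log2 1.80, adjusted p = 0.000678). Tnfrsf9, the costimulator 4-1BB, had 575 and 572 CPM against 176 to 221 CPM (log2 1.52, adjusted p = 1.44e-06). Levels with 4-OHT were 514 CPM for Pdcd1 and 617 CPM for Tnfrsf9. Of 22 cytokine receptors, 17 were tested, 9 rose and 2 fell. At that control level 7 of 15 rose (46.7%) and 2 fell (13.3%), where 24.7% of all genes fell. Il12rb1, a chain of the interleukin-12 receptor, had 29.5 and 25.8 CPM against 0.47 to 1.9 CPM (log2 4.55, adjusted p = 2.29e-06), with 5.70 against control replicates 1 and 2. Il10ra, the interleukin-10 receptor, fell by 1.16 on the log2 scale (adjusted p = 0.000932).

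Of 25 cytokines and cytotoxic effectors, 8 were tested, 6 rose (75%) and 1 fell (12.5%), the last being Gzma. Among all genes tested 22.6% rose and 23% fell. Tnfsf10, the death ligand TRAIL, had 10.9 and 10.8 CPM against 0.947 to 3.09 CPM (log2 2.53, adjusted p = 4.46e-05). Of 18 chemokine receptors and homing genes, 14 were tested, 9 rose and 1 fell. At a control mean of at least 1 CPM 7 of 12 rose (58.3%) and 1 fell (8.33%), against 21% and 24.7% of all genes at that level. Ccr2, a chemokine receptor, had 42.3 and 47.5 CPM with ethanol, 0.94 and 0.663 CPM in control replicates 1 and 2 and 3.23 to 5.06 CPM in replicates 3 to 6 (log2 3.75, adjusted p = 6.17e-05). It stood at 17.5 CPM with 4-OHT, 29.5 CPM with DEP and 2.44 CPM with wild type, an order that differs from that of Il2ra. Selplg, the adhesion ligand PSGL-1, fell by 1.39 on the log2 scale (adjusted p = 0.000668).

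Interferon-stimulated genes were mostly above the controls. All 30 had a count, and both ethanol samples lay above all controls for 22 (73.3%) and below for 1. Of 23 tested, 15 rose and 1 fell, but some could be tested only because they were high with ethanol. At a control mean of at least 1 CPM, 17 were tested, 9 rose (52.9%) and 1 fell (5.88%), with a median log2 fold change of 0.77. Of all 10334 genes at that level, 21% rose and 24.7% fell, with a median of -0.02. Without the level limit, against control replicates 1 and 2 the counts were 18 and 1 of 24, and against replicates 3 to 6 they were 20 and 1 of 23. Of all genes tested, 30.4% rose and 30.7% fell against replicates 1 and 2, and 33.9% and 33.1% against replicates 3 to 6. Mx1, an antiviral GTPase, had 3.04 and 3.54 CPM with ethanol against 0 to 0.343 CPM (log2 4.15, adjusted p = 7.42e-05). Ifih1, the RNA sensor MDA5, had 6.8 and 7.82 CPM against 0.282 to 0.843 CPM (log2 3.54, adjusted p = 7.79e-06), with 4.65 against control replicates 1 and 2. Both stood apart from the controls at low levels, and levels with 4-OHT were 2.66 and 11.4 CPM. Of 16 nucleic acid sensing genes, 11 were tested at a control mean of at least 1 CPM, 7 rose (63.6%) and 0 fell.

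**Figure D4:**
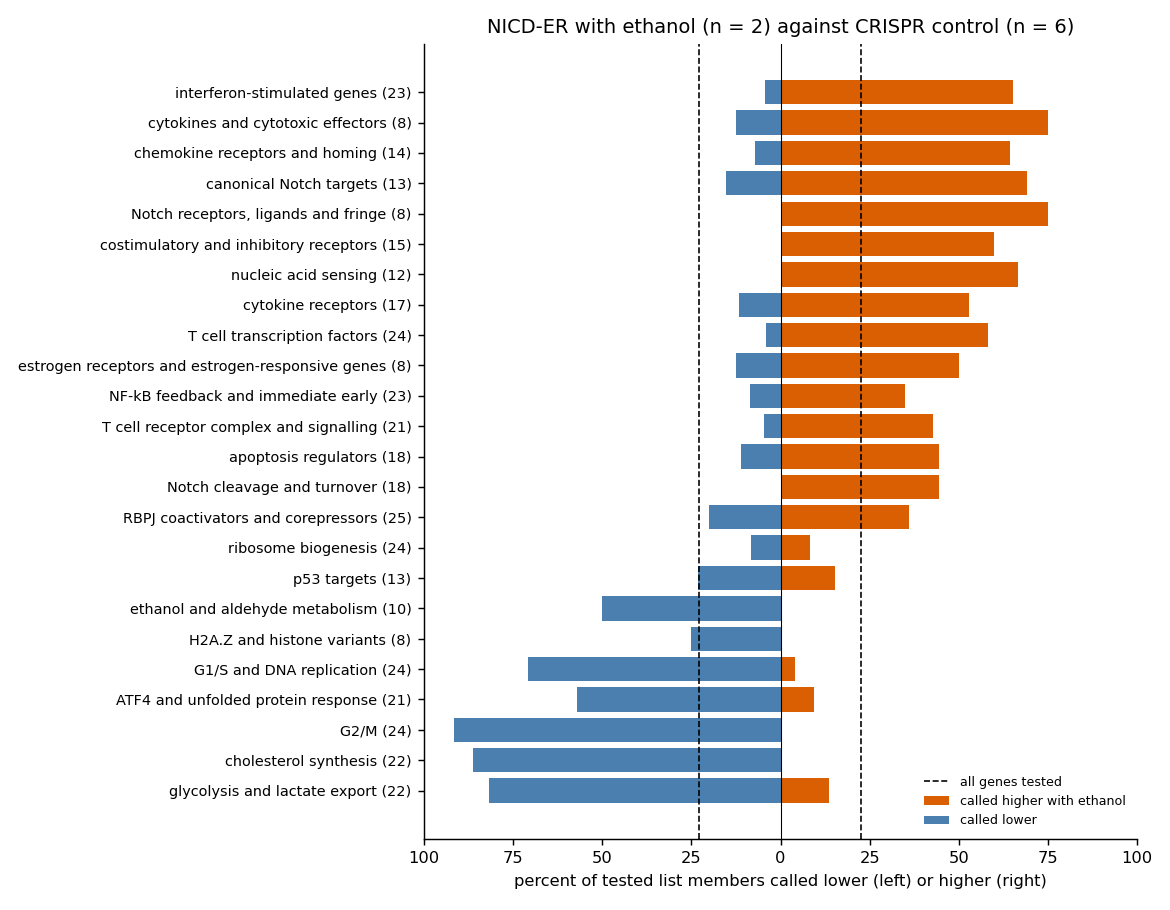
Share of the tested members of each gene list (number tested in parentheses) called lower (left) or higher (right) with ethanol against the 6 controls; dashed lines are the shares over all genes tested, 23% lower and 22.6% higher. Lists are ordered by their median log2 fold change, with glycolysis (median -1.03) at one end and interferon-stimulated genes (1.24) at the other; members near 0 in the controls are included where high ethanol levels let them be tested.

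Most genes of the cell cycle, glycolysis and cholesterol synthesis lists fell with ethanol, against 23% of all genes tested. Of 24 G2/M genes, 0 rose and 22 fell, with a median log2 fold change of -0.52, and of 24 G1/S and replication genes 1 rose and 17 fell (median -0.39). Bub1b, a spindle checkpoint kinase, had 420 and 425 CPM with ethanol against 638 to 784 CPM (log2 -0.80, SE 0.0975, adjusted p = 0.000152). Gins1, a subunit of the replicative helicase, fell by 0.90 on the log2 scale (adjusted p = 0.0017). Mki67, the proliferation antigen Ki-67, had 1730 and 1840 CPM, within the controls at 1580 to 1900 CPM. Against DEP, 21 of 24 G2/M genes were lower with ethanol and 0 higher, while of 24 G1/S genes 11 were higher and 5 lower. Of all 12499 genes tested against DEP, 3572 were higher and 3414 lower. Without ethanol replicate 1 or 2 the median of the G1/S genes against the controls was -0.38 or -0.40.

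Of 23 genes of glycolysis and lactate export, 22 were tested, 18 fell and 3 rose, and the median of -1.03 was the lowest of the lists drawn. Ldha, lactate dehydrogenase A, had 1010 and 990 CPM with ethanol against 2270 to 2520 CPM (log2 -1.25, SE 0.0648, adjusted p = 1.09e-06). Slc16a3, a lactate exporter, had 78.6 and 84.2 CPM against 242 to 265 CPM (log2 -1.64, adjusted p = 8.17e-08). Aldoc, aldolase C, had 86.5 and 88 CPM against 277 to 356 CPM (log2 -1.81, adjusted p = 4.91e-06). For all 3 the DEP line lay between ethanol and control, at 1310, 178 and 218 CPM. The 3 genes that rose were Eno2, Slc2a3 and Pfkfb3, the last not without ethanol replicate 1 (adjusted p = 0.0515). Against DEP, 14 of 22 members were lower with ethanol and 5 higher, beside 3414 lower and 3572 higher of all 12499 genes tested.

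Of 24 cholesterol synthesis genes, 22 were tested, 19 fell and 0 rose (median -0.68). Lss, lanosterol synthase, had 232 and 225 CPM with ethanol against 594 to 805 CPM (log2 -1.67, SE 0.136, adjusted p = 1.32e-05) and 424 CPM with DEP. Of 22 genes of the ATF4 and unfolded protein responses, 21 were tested, 12 fell (57.1%) and 2 rose (9.52%). Of all genes tested, 23% fell and 22.6% rose. The median log2 fold change of this list was -0.43, and -0.40 or -0.38 without ethanol replicate 1 or 2. Hsp90b1, a chaperone of the endoplasmic reticulum, had 1870 and 1900 CPM with ethanol, 5530 and 5600 CPM in control replicates 1 and 2 and 3920 to 4040 CPM in replicates 3 to 6 (log2 -1.27, adjusted p = 0.00028). Both ethanol samples were below every control for Lss and Hsp90b1.

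Ribosome biogenesis depended on the control. Of 24 genes, 2 rose and 2 fell against all 6 controls (8.33% each, median 0.13), where 22.6% and 23% of all genes tested did. Against replicates 1 and 2, 20 rose (83.3%) and 2 fell (8.33%), with a median of 0.48, where 30.4% and 30.7% of all genes did. Against replicates 3 to 6, 5 rose (20.8%) and 9 fell (37.5%), with a median of -0.02. Of all genes tested there, 33.9% rose and 33.1% fell. No direction against the control as a whole is therefore given for this group.

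Genes tied to the solvent and to the receptor part were examined separately. Of 15 genes of ethanol and aldehyde metabolism, 10 were tested, 0 rose and 5 fell (50%), where 22.6% and 23% of all genes tested did. Their median log2 fold change was -0.17, and -0.17 or -0.11 without ethanol replicate 1 or 2. Acss2, an acetate-activating enzyme, had 36.7 and 36.2 CPM with ethanol against 54.5 to 63.3 CPM (log2 -0.72, adjusted p = 5.86e-05). Of 14 estrogen receptors and estrogen-responsive genes, 8 were tested, 4 rose and 1 fell. Esr1 was among the 4, and could be tested only because it was high with ethanol. At a control mean of at least 1 CPM, 3 of 6 rose (50%) and 0 fell, against 21% and 24.7% of all genes at that level. Bcl2, described above with the Notch targets, is also on this list and among those that rose. The median log2 fold change of the 8 was 0.35, and 0.35 or 0.28 for the genes tested without ethanol replicate 1 or 2. The gene of the 8 that fell was Greb1, at 0.194 and 0.031 CPM against 0.094 to 0.824 CPM, and its groups overlapped (log2 -2.15, adjusted p = 0.0417). The call was lost with DESeq2 (0.0588), without a filter (0.066), with the label set as a covariate (0.794), and on leaving out ethanol replicate 1 (0.0613) or 2 (0.309) or any 1 of control replicates 3 to 6 (0.0566 to 0.0811). Of 9 H2A.Z and other histone variant genes, 8 were tested, 0 rose and 2 fell, H2afv (log2 -0.75) and H3f3b (-0.55). The share that fell, 25%, was near the 23% of all genes tested.

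By chromosome, 2 stood out from the rest. On chromosome 8 the median log2 fold change over 589 genes tested was 0.36, with 84.4% of genes above 0, 322 called higher and 31 lower. On chromosome 12 the median over 392 genes was 0.24, with 74.2% above 0, 167 called higher and 25 lower. Both held with either set of controls, at 0.38 and 0.35 for chromosome 8 and 0.29 and 0.20 for chromosome 12. Against DEP they differed: the median was 0.29 for chromosome 8 and -0.02 for chromosome 12. In windows of 25 Mb along chromosome 8 the medians lay between 0.30 and 0.47 in all 6 windows. Chromosome 3 was lowest, with a median of -0.15 over 545 genes. Copy number was not measured. Genes on chromosome 8 include Klf2, Il12rb1, Lonrf1, Maf, Dpep1, Crnde and Galntl6, and those on chromosome 12 include Id2, E2f6, Jag2 and Plekhg3.

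**Figure D5:**
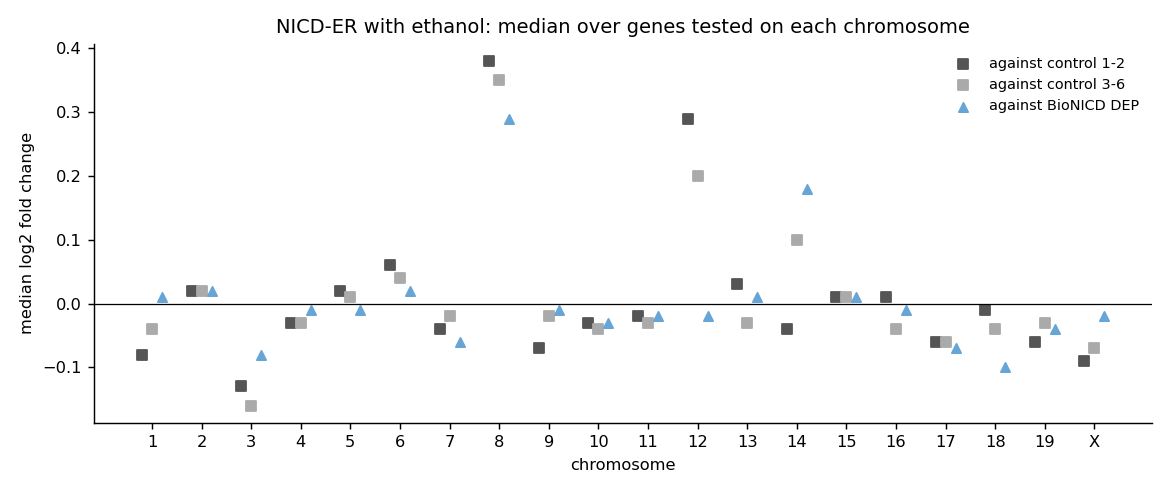
Median log2 fold change of ethanol over the genes tested on each chromosome, against control replicates 1 and 2, control replicates 3 to 6 and DEP BioNICD, 1 symbol for each reference. Chromosome 8 lies between 0.29 and 0.38 against these references, and chromosome 12 at 0.29 and 0.20 against the controls and at -0.02 against DEP.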

How the data were processed

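Per the labels, RNA was extracted and sequenced as ribosome-depleted, stranded libraries. The authors ran featureCounts 1.5.0 over exons of a UCSC mm9 annotation, per the file headers, with no strand option set, so reads of overlapping antisense genes cannot be told apart. The deposited values are raw counts for 24391 genes. The submitters' processing notes also name FastQC, Trimmomatic, STAR and DESeq2. Aligner settings: not given in the sources used here.

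Counts were tested with edgeR 4.0.16 (quasi-likelihood, TMM, filterByExpr, Benjamini-Hochberg over all genes tested, adjusted p under 0.05) in R 4.3.3, in the 8 samples of both groups. BCV was 10.9% with 6 residual degrees of freedom. NICD groups were fitted in 1 model of 8 samples. SE is the absolute log2 fold change over the square root of F. No replicate pair fell to sampling noise: the mean chi-square per gene was 19.9 between the ethanol samples and at least 2.99 between controls. The floor is 3 counts over a group. Members and the 30 gene lists were chosen with earlier results of these data known. Named genes are the canonical Notch targets, the 10 largest changes in each direction, up to 3 called members per list and the 10 largest shared with the BioNICD comparison, from which some were described and 1 is not reported here. The code was tested on simulated data. DESeq2 1.42.0, other scalings and filters, a label-set covariate and leaving out each sample were tried.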

Additional observations from a re-analysis of the deposited data

Results flagged for a closer look

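For 10 of 87 genes examined, 1 of the 6 controls stood far from the other 5 by Dixon's criterion, which flags about 1 in 20 groups by chance (4.35 here). Most rest on very few reads in a control. The highest control was replicate 1 for Igf1r (0.094 CPM), Cd22 (0.282), Gbp2b (0.376) and E2f6 (0.094), replicate 3 for Esr1 (0.0687), replicate 4 for Eno2 (0.0657), replicate 5 for Notch3 (0.0731) and Cntnap2 (0.219), and replicate 6 for Epas1 (0.0703). Kdm5b was the exception at a high level, with 203 CPM in replicate 1 and 181 CPM in the next highest control.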

How the results depend on the processing

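With 1 sample left out in turn, the count of genes called against the 6 controls ran from 2954 (without ethanol replicate 1) and 3180 (without ethanol replicate 2) to 5526. The lone ethanol sample was then assumed to vary like the controls. The count was 5232 with DESeq2, 5082 with upper quartile scaling, 4981 without a filter on low counts, 6915 with the label set as a covariate and, in an alternative added after seeing the data, 7468 against control replicates 3 to 6. Of 1493 values of the genes named, over all settings, 1411 kept their direction and their side of the threshold, 39 no longer passed, 21 newly passed and 22 changed direction. The genes that changed direction were not called with 6 controls, and apart from Ets1 and Mki67 no changed value passed. Ets1, with no count in control replicates 1 and 2, gave fitted values of 6.43 against them and 6.18 with the label set as a covariate. Mki67 gave 0.15 in both of these, 0.06 with upper quartile scaling, 0.00 with all 20 samples or without Lars2, and -0.04 to 0.04 with 1 sample left out. Cd3d gave -0.05 in the same pair of settings. Notch4 gave 0.29 in that pair, 0.01 with upper quartile scaling and -0.13 to 0.07 with 1 sample left out (0.05 without ethanol replicate 1). Rfng gave 0.08 against control replicates 3 to 6, 0.03 with upper quartile scaling and -0.07 to 0.05 with 1 sample left out. The cause was not tested.

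Replicate numbers 1 and 2 are shared by the ethanol samples and control replicates 1 and 2, but their deviations correlated at only 0.0495, so the numbers were not taken to pair the samples. With a replicate block the count against those controls was 6747 instead of 6912.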
